A study of Mus musculus with 24 samples.

Results

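The 8 genes described here, Sqle, Hmgcs1, Idi1, Lss, Cyp51, Dhcr7, Fdps and Insig1, encode 7 enzymes of cholesterol synthesis and 1 protein that holds the pathway in check. They were chosen by name, and they had 12 of the 25697 probes of a mouse bead array, on which 16593 genes had a named probe. Sqle had 2 probes, Insig1 had 4 and the other 6 genes had 1 each. Whole diaphragms were taken from mice injected with 25000 newborn larvae of the nematode Trichinella spiralis, which settle in skeletal muscle and live inside muscle cells. Each of the 24 arrays held the RNA of 1 diaphragm. The strains were Rag1-/-, which lack T and B cells, PHIL, transgenic mice without eosinophils, and C57BL/6 wild type (WT). Each strain had 2 naive (uninfected) mice, 3 mice at 2 days post injection (dpi) and 3 mice at 7 dpi. The knockout and transgenic mice were bred in house on a C57BL/6 background, whereas WT mice were bought, so strains also differed in origin. The Rag1-/- arrays were processed as a separate experiment from the PHIL and WT arrays, and levels were not compared between these 2 sets.

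Animal cells build cholesterol from acetyl-CoA by way of mevalonate, isoprenoid pyrophosphates, squalene and lanosterol. When sterols in the endoplasmic reticulum run low, the transcription factor SREBP-2 is released from its escort complex and switches on nearly every gene of the pathway. INSIG-1 retains the escort complex when sterols are plentiful, and its own gene is a target of SREBP. Squalene epoxidase, encoded by Sqle, adds the first oxygen on the way to sterols and is a control point of the pathway. Muscle cells, macrophages and proliferating cells all synthesise cholesterol.

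RefSeq promoter sequences (GRCm38.p6) were given for 6 of the 8 genes; Sqle and Fdps had none in the table used. The 250 bases before the start of 3 of them are shown. These are the gene that opens the mevalonate pathway, the gene that changed most among those with a sequence, and the regulator. Capitals mark matches to the sterol regulatory element TCACNCCAC and to the NF-Y box CCAAT, which is ATTGG when read on the other strand.
Hmgcs1, chr13:119690101-119690350, plus strand: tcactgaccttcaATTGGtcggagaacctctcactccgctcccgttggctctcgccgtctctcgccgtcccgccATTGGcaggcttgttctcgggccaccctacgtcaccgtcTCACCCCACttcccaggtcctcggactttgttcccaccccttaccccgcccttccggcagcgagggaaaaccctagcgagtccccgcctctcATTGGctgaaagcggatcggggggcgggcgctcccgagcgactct
Cyp51, chr5:4104698-4104947, minus strand: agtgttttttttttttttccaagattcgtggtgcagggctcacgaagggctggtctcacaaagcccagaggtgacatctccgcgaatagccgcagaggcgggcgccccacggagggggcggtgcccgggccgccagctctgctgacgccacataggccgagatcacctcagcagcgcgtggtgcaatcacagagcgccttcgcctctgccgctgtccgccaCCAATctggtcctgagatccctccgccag
Insig1, chr5:28071162-28071411, plus strand: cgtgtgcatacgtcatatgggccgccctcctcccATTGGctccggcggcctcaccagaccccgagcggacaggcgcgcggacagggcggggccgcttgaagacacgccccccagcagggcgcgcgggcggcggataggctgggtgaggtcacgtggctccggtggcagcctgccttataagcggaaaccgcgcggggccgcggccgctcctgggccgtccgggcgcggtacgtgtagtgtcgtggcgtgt

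Both strands of these windows were searched. The sterol regulatory element TCACNCCAC was present in the window of 1 of the 6 genes, Hmgcs1, where it began 137 bases before the start, and for 1.22% of all 27025 genes of the table, a gene being counted when any of its windows held the motif. CCAAT was present for 6 of 6 genes and for 37.5% of all genes. GGGCGG, the GC box bound by Sp1, was also present for 6 of 6 genes and for 35.4% of all genes. A match describes letters in the window and not a bound site, and the absence of a match says only that those letters were not in this window.

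The median signal of an array was 295.1 to 333.4 units on the Rag1-/- arrays and 106.3 to 131.9 on the PHIL and WT arrays, with 10340 to 11740 and 8847 to 10627 probes detected, a probe being detected on an array when its detection p-value was below 0.01. The Rag1 probe was detected on 0 of 8 Rag1-/- arrays and on 1 of 16 PHIL and WT arrays, so it could not check the knockout. Likewise, 0 of 6 eosinophil markers were detected on any array, so the loss of eosinophils in PHIL could not be checked. No 2 arrays were identical, and their highest correlation was 0.995. The Y-linked gene Eif2s3y was detected on 8 of 8 Rag1-/-, 2 of 8 PHIL and 4 of 8 WT arrays, unevenly over strain and, in PHIL, over stage. Both PHIL arrays were at 7 dpi (replicates 1 and 3), against 0 of 5 at naive and 2 dpi, whereas WT had it on 1 of 2 naive arrays, 1 of 3 at 2 dpi and 2 of 3 at 7 dpi. With its level as a covariate in PHIL and WT, a fit chosen after seeing the data, 6 of 7 genes were called at 7 dpi against naive in PHIL and 7 of 7 in WT, Dhcr7 being the call lost. Values below are log2 of background-corrected, quantile-normalised signal, and in a whole tissue fewer cells of a type and less RNA per cell cannot be told apart. A gene was called when its limma adjusted p was at most 0.05 and its change at least 1.5-fold (0.59 on the log2 scale). Scaling each array to its median instead raised the median change of all genes at 7 dpi by 0.09 in Rag1-/-, 0.48 in PHIL and 0.44 in WT, and no change of the 8 genes turned its direction under it where it was called.

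At 7 dpi against naive, Hmgcs1, Cyp51 and Fdps, which were detected on all 24 arrays, were called higher in all 3 strains. Sqle had the largest fitted change, with most naive values of its standing probe not detected. In Rag1-/- mice 7 of the 8 genes were called higher, with Insig1 the exception, against 17.6% of all 8660 genes tested. In PHIL and in WT 7 of 7 genes tested were called higher, against 14.9% and 16.3% of 8226 genes. The median change of the genes tested was 1.24 in Rag1-/-, 1.33 in PHIL and 1.65 in WT on the log2 scale, whereas the median over all genes was -0.09, -0.07 and -0.06. Every 7 dpi array lay above every naive array for 8 of 8 genes in Rag1-/-, 7 of 7 in PHIL and 7 of 7 in WT, which held for 30.6%, 28.8% and 29.2% of all genes. In PHIL and WT the probes standing for Lss and Insig1 were detected on no naive array, and that for Sqle on 0 of 2 naive PHIL and 1 of 2 naive WT arrays. In Rag1-/- the probe standing for Sqle was detected on 0 of 2 naive arrays, and those for Idi1, Lss and Insig1 on 1 of 2 each. These probes passed the detection filter only through infected arrays, so the counts and medians that hold them are a description and nothing is read from them. The calls of Hmgcs1, Cyp51 and Fdps do not rest on such probes.

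**Figure D1:**
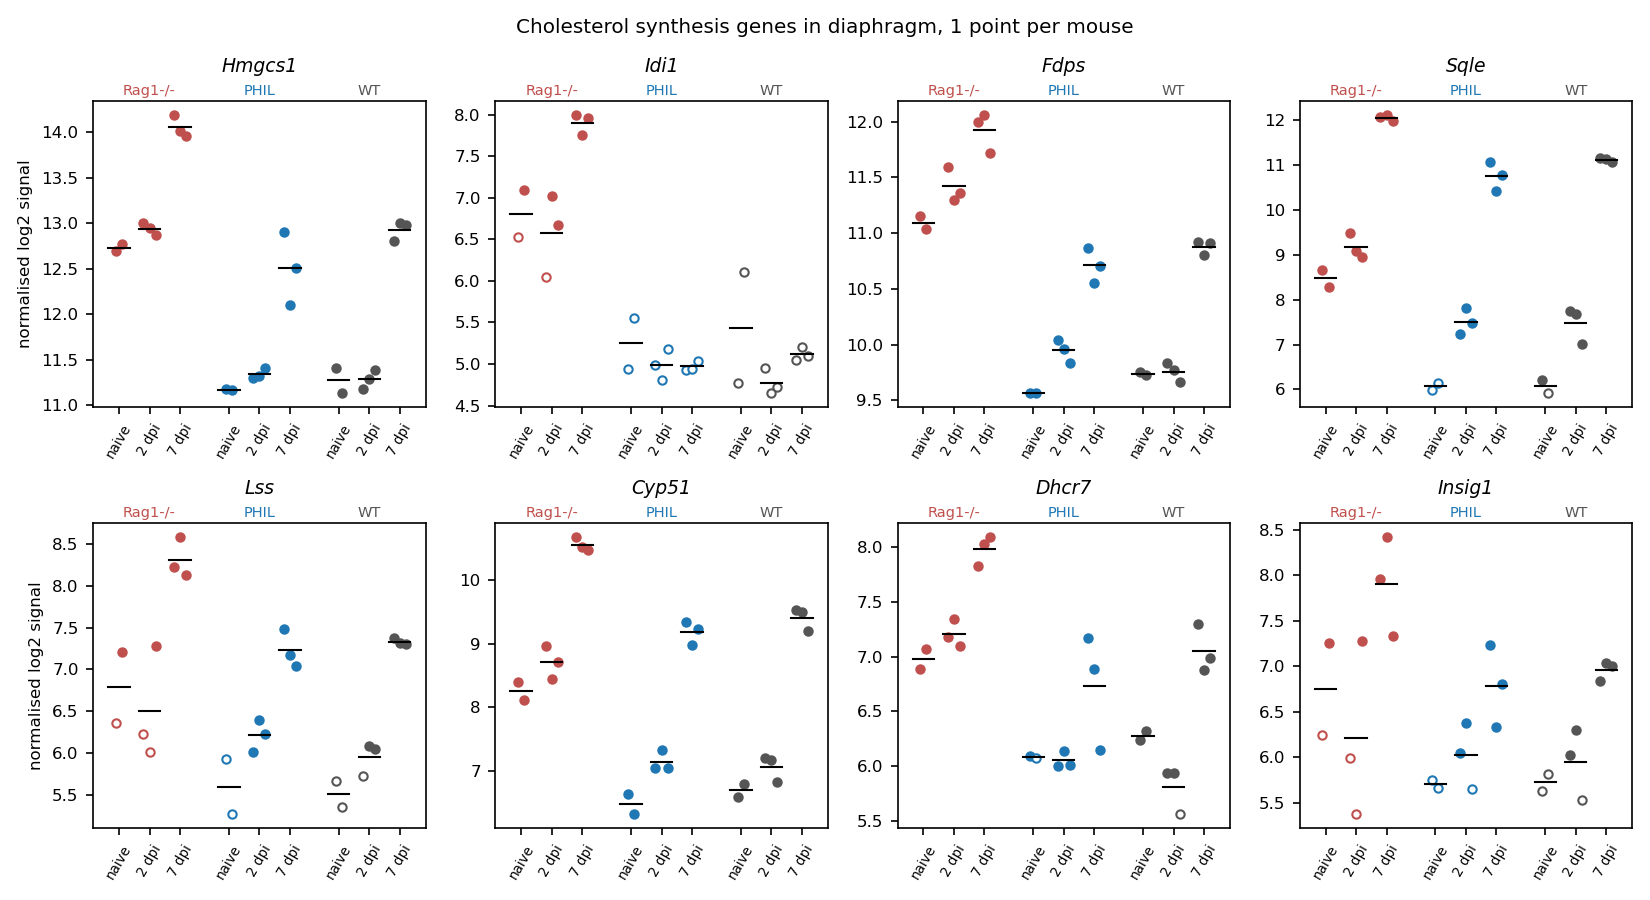
Each panel plots 1 gene, with the log2 normalised signal on the vertical axis and the 3 strains at naive, 2 dpi and 7 dpi on the horizontal axis. Each point is 1 array, hollow where the probe was not detected, and the bar is the group mean. Sqle is shown by probe ILMN_2737163 throughout, and Rag1-/- levels come from their own normalisation and are not comparable with those of PHIL and WT. For Sqle, Hmgcs1, Cyp51 and Fdps the 7 dpi points stand above all naive points in every strain, while the 2 dpi points lie near the naive ones for Hmgcs1.

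Hmgcs1, the cytosolic HMG-CoA synthase that opens the mevalonate pathway, was at 12.69 and 12.77 in naive, 13.00, 12.95 and 12.87 at 2 dpi and 14.19, 14.01 and 13.95 at 7 dpi in Rag1-/- diaphragms. PHIL diaphragms had 11.18 and 11.16 in naive, 11.30, 11.32 and 11.41 at 2 dpi and 12.91, 12.09 and 12.51 at 7 dpi. WT diaphragms had 11.41 and 11.13 in naive, 11.17, 11.29 and 11.39 at 2 dpi and 12.80, 13.00 and 12.98 at 7 dpi. The 7 dpi arrays were the high ones in each strain and did not overlap with the earlier arrays, and the 3 PHIL arrays at 7 dpi were the most spread. From naive to 7 dpi the rise was 2.50-fold in Rag1-/- (log2 1.32 ± 0.13 SE, limma adjusted p = 0.000295), 2.52-fold in PHIL (adjusted p = 5.42e-05) and 3.14-fold in WT (log2 1.65 ± 0.18, adjusted p = 7.74e-06).

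Idi1, the isomerase that turns isopentenyl into dimethylallyl pyrophosphate, was measurable only in part. In PHIL and WT it was detected on 0 of 16 arrays, so no fold is given for these strains. In Rag1-/- it was at 6.52 and 7.09 in naive, 6.05, 7.02 and 6.67 at 2 dpi and 7.99, 7.76 and 7.96 at 7 dpi, and 1 naive and 1 array at 2 dpi were not above background. The 3 arrays at 7 dpi were the highest, and the rise over naive was 2.14-fold (log2 1.10 ± 0.28, limma adjusted p = 0.0228). The call was lost without naive replicate 1 (adjusted p = 0.147) or without 7 dpi replicate 1 (0.0618) or 3 (0.0559).

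Fdps makes farnesyl pyrophosphate, the branch point to sterols, ubiquinone, dolichol and prenylated proteins. It was at 11.16 and 11.03 in naive, 11.60, 11.30 and 11.36 at 2 dpi and 12.00, 12.06 and 11.72 at 7 dpi in Rag1-/-. Fdps in PHIL was at 9.57 and 9.57 in naive, 10.04, 9.96 and 9.83 at 2 dpi and 10.87, 10.56 and 10.70 at 7 dpi. Fdps in WT was at 9.75 and 9.73 in naive, 9.84, 9.78 and 9.66 at 2 dpi and 10.92, 10.80 and 10.91 at 7 dpi. The 2 dpi arrays lay apart from the naive ones in Rag1-/- and PHIL and overlapped with them in WT, and the 7 dpi arrays were the highest in all strains. At 7 dpi against naive the rise was 1.78-fold in Rag1-/- (log2 0.83 ± 0.16, limma adjusted p = 0.00608), 2.21-fold in PHIL (log2 1.14 ± 0.11, adjusted p = 3.39e-06) and 2.20-fold in WT (adjusted p = 3.21e-06).

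Sqle, squalene epoxidase, was at 8.67 and 8.29 in naive, 9.49, 9.09 and 8.96 at 2 dpi and 12.07, 12.11 and 11.97 at 7 dpi in Rag1-/- by probe ILMN_2737163. In PHIL the same probe was at 5.98 and 6.15 in naive, 7.23, 7.81 and 7.47 at 2 dpi and 11.08, 10.43 and 10.78 at 7 dpi. In WT it was at 6.21 and 5.92 in naive, 7.76, 7.69 and 7.02 at 2 dpi and 11.16, 11.13 and 11.07 at 7 dpi. The 3 stages formed separate steps in each strain, and only 1 of the 4 naive arrays of PHIL and WT, WT replicate 1, was above background. At 7 dpi against naive the fitted change was 33.1-fold in WT (log2 5.05 ± 0.23, limma adjusted p = 3.33e-09) and 25.9-fold in PHIL (log2 4.70 ± 0.23, adjusted p = 7.49e-09). Since PHIL had no naive array above background, the bound there is at least 24.6-fold, taken against the lowest detected signal of each naive array where that was higher. In Rag1-/- the fitted change by this probe was 11.9-fold (log2 3.57, adjusted p = 3.23e-05).

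The second Sqle probe, ILMN_2600348, gave other sizes in PHIL and WT. It was at 5.58 and 5.66 in naive, 6.91, 5.94 and 5.99 at 2 dpi and 9.20, 9.17 and 9.22 at 7 dpi in Rag1-/-. PHIL diaphragms had 4.63 and 5.02 in naive, 4.79, 5.22 and 4.80 at 2 dpi and 7.93, 7.52 and 7.97 at 7 dpi. WT diaphragms had 4.63 and 4.54 in naive, 5.21, 5.47 and 5.15 at 2 dpi and 8.08, 8.15 and 8.17 at 7 dpi. The 7 dpi arrays again stood apart, but this probe was detected on 0 of 10 naive and 2 dpi arrays of PHIL and WT and on 1 of 5 in Rag1-/-. Its change at 7 dpi was 3.58 ± 0.27 in Rag1-/- (limma adjusted p = 0.000127), at least 5.54-fold since no naive array was above background. No naive array of PHIL or WT was above background for it either, so the rise was at least 3.16-fold in PHIL (fitted log2 change 2.98, adjusted p = 4.36e-08) and at least 3.67-fold in WT (fitted 3.55, adjusted p = 6.64e-09). By gene this probe stood for Sqle in Rag1-/-, and ILMN_2737163 stood for it in PHIL and WT, because the probe with the widest spread over arrays was taken.

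**Figure D2:**
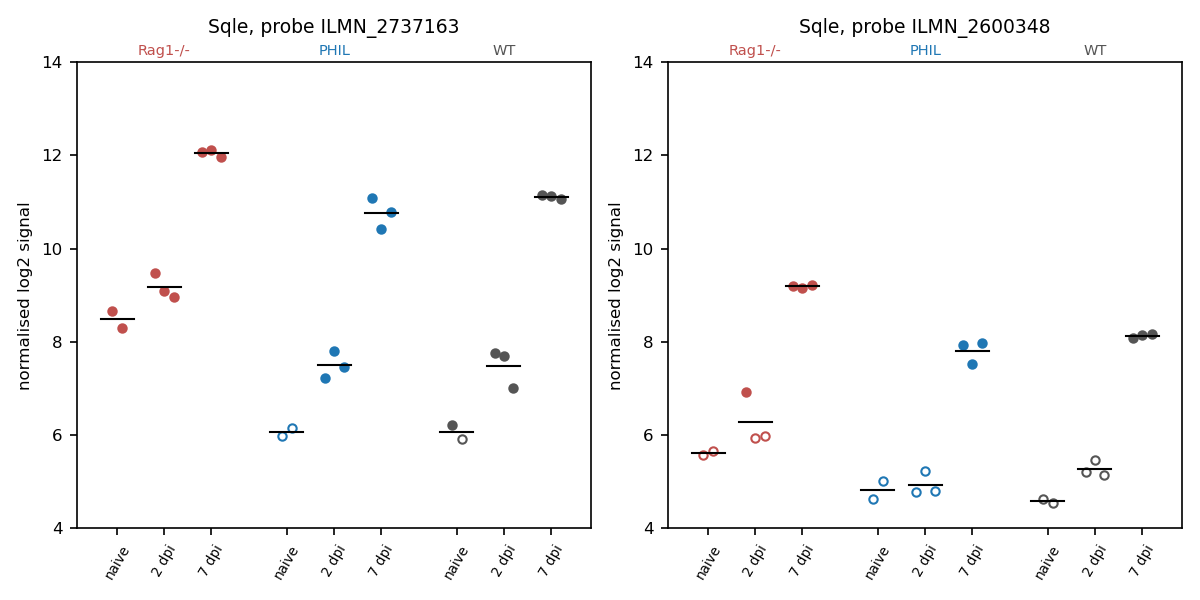
The 2 probes of Sqle are plotted in separate panels, with log2 normalised signal on the vertical axis and the groups on the horizontal axis. Each point is 1 array and hollow points were not detected. Both probes put all 7 dpi arrays above all naive arrays, and only ILMN_2737163 separates 2 dpi from naive arrays in all 3 strains.

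Lss, which cyclises squalene epoxide to lanosterol, was at 6.36 and 7.21 in naive, 6.23, 6.01 and 7.27 at 2 dpi and 8.23, 8.59 and 8.12 at 7 dpi in Rag1-/-. PHIL diaphragms had 5.92 and 5.27 in naive, 6.02, 6.39 and 6.23 at 2 dpi and 7.49, 7.18 and 7.04 at 7 dpi. WT diaphragms had 5.67 and 5.36 in naive, 5.73, 6.08 and 6.05 at 2 dpi and 7.37, 7.31 and 7.31 at 7 dpi. The 7 dpi arrays lay above all others, the naive and 2 dpi arrays of Rag1-/- overlapped, and none of the naive PHIL or WT arrays was above background. The rise was 2.88-fold in Rag1-/- (log2 1.53 ± 0.39, limma adjusted p = 0.0221), at least 2.13-fold in PHIL (adjusted p = 1.88e-05) and at least 2.10-fold in WT (adjusted p = 7.22e-06). The Rag1-/- call was lost without naive replicate 1 (log2 1.10, adjusted p = 0.145) or without 7 dpi replicate 1 (adjusted p = 0.05) or 2 (0.0604).

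Cyp51, the lanosterol demethylase, changed more than any of the 8 genes but Sqle. It was at 8.40 and 8.11 in naive, 8.97, 8.45 and 8.71 at 2 dpi and 10.69, 10.53 and 10.48 at 7 dpi in Rag1-/-. Cyp51 in PHIL was at 6.63 and 6.31 in naive, 7.04, 7.32 and 7.05 at 2 dpi and 9.35, 8.98 and 9.23 at 7 dpi. Cyp51 in WT was at 6.59 and 6.80 in naive, 7.21, 7.17 and 6.82 at 2 dpi and 9.54, 9.50 and 9.20 at 7 dpi. The order naive, 2 dpi, 7 dpi held without overlap in every strain, with 1 WT array at 2 dpi close to the naive level. The rise at 7 dpi against naive was 4.95-fold in Rag1-/- (log2 2.31 ± 0.18, limma adjusted p = 0.000135), 6.55-fold in PHIL (log2 2.71 ± 0.17, adjusted p = 6.68e-08) and 6.58-fold in WT (log2 2.72 ± 0.17, adjusted p = 4.64e-08).

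Dhcr7, which catalyses the last reduction to cholesterol, changed least in PHIL and WT. It was at 6.89 and 7.07 in naive, 7.18, 7.35 and 7.10 at 2 dpi and 7.83, 8.03 and 8.10 at 7 dpi in Rag1-/-. PHIL diaphragms had 6.09 and 6.08 in naive, 6.01, 6.14 and 6.01 at 2 dpi and 7.17, 6.88 and 6.15 at 7 dpi. WT diaphragms had 6.23 and 6.32 in naive, 5.94, 5.94 and 5.56 at 2 dpi and 7.30, 6.87 and 6.99 at 7 dpi. Replicate 3 of PHIL at 7 dpi was barely above the naive level, and the WT arrays at 2 dpi were the lowest of that strain. The rise was 2.00-fold in Rag1-/- (log2 1.00 ± 0.14, limma adjusted p = 0.00187), 1.57-fold in PHIL (log2 0.65 ± 0.23, adjusted p = 0.0308) and 1.72-fold in WT (log2 0.78 ± 0.23, adjusted p = 0.0121). The PHIL call was lost with Eif2s3y as a covariate (log2 0.61, adjusted p = 0.0591), a fit chosen after seeing the data. It was also lost without either naive PHIL mouse (adjusted p = 0.107 and 0.109) or without 7 dpi replicate 1 (log2 0.43, adjusted p = 0.12) or 2 (adjusted p = 0.0817), and the WT call without naive replicate 1 (adjusted p = 0.0658) or 2 (0.0502).

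Insig1, the sterol-sensing brake of the pathway, had 4 probes. By the one that stood for the gene, ILMN_2606693, it was at 6.24 and 7.26 in naive, 5.99, 5.37 and 7.28 at 2 dpi and 7.95, 8.42 and 7.33 at 7 dpi in Rag1-/-. PHIL diaphragms had 5.75 and 5.66 in naive, 6.04, 6.38 and 5.65 at 2 dpi and 7.23, 6.33 and 6.80 at 7 dpi. WT diaphragms had 5.63 and 5.82 in naive, 6.02, 6.30 and 5.53 at 2 dpi and 6.84, 7.03 and 7.00 at 7 dpi. The Rag1-/- arrays were the most spread within groups, and the naive PHIL and WT arrays were not above background for this probe. In Rag1-/- its change at 7 dpi of 1.15 ± 0.57 on the log2 scale was not called (limma adjusted p = 0.166). The rise was at least 1.56-fold in PHIL (limma adjusted p = 0.00407) and at least 1.62-fold in WT (log2 1.23 ± 0.26, adjusted p = 0.0016). Another probe, ILMN_1245272, was detected on all 24 arrays, and in the fit over all probes it rose by 0.97 in PHIL (adjusted p = 0.00015) and 0.82 in WT (adjusted p = 0.000513) on the log2 scale, with 0.65 in Rag1-/- (adjusted p = 0.0566, not called). ILMN_2895388 rose by 1.12 ± 0.12 in Rag1-/- (adjusted p = 0.000449), and its changes in PHIL (0.65, adjusted p = 0.117) and WT (0.74, adjusted p = 0.0745) were not called. Which strains had a call thus depended on the probe. When an array was left out, the probe standing for a gene was picked anew. Insig1 in Rag1-/- then changed by 1.11 on the log2 scale without naive replicate 1. It was called without 2 dpi replicate 1 (1.12, limma adjusted p = 0.00103) or 2 (1.13, 0.00127). These sizes are near that of ILMN_2895388, so they are not taken as changes of ILMN_2606693.

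**Figure D3:**
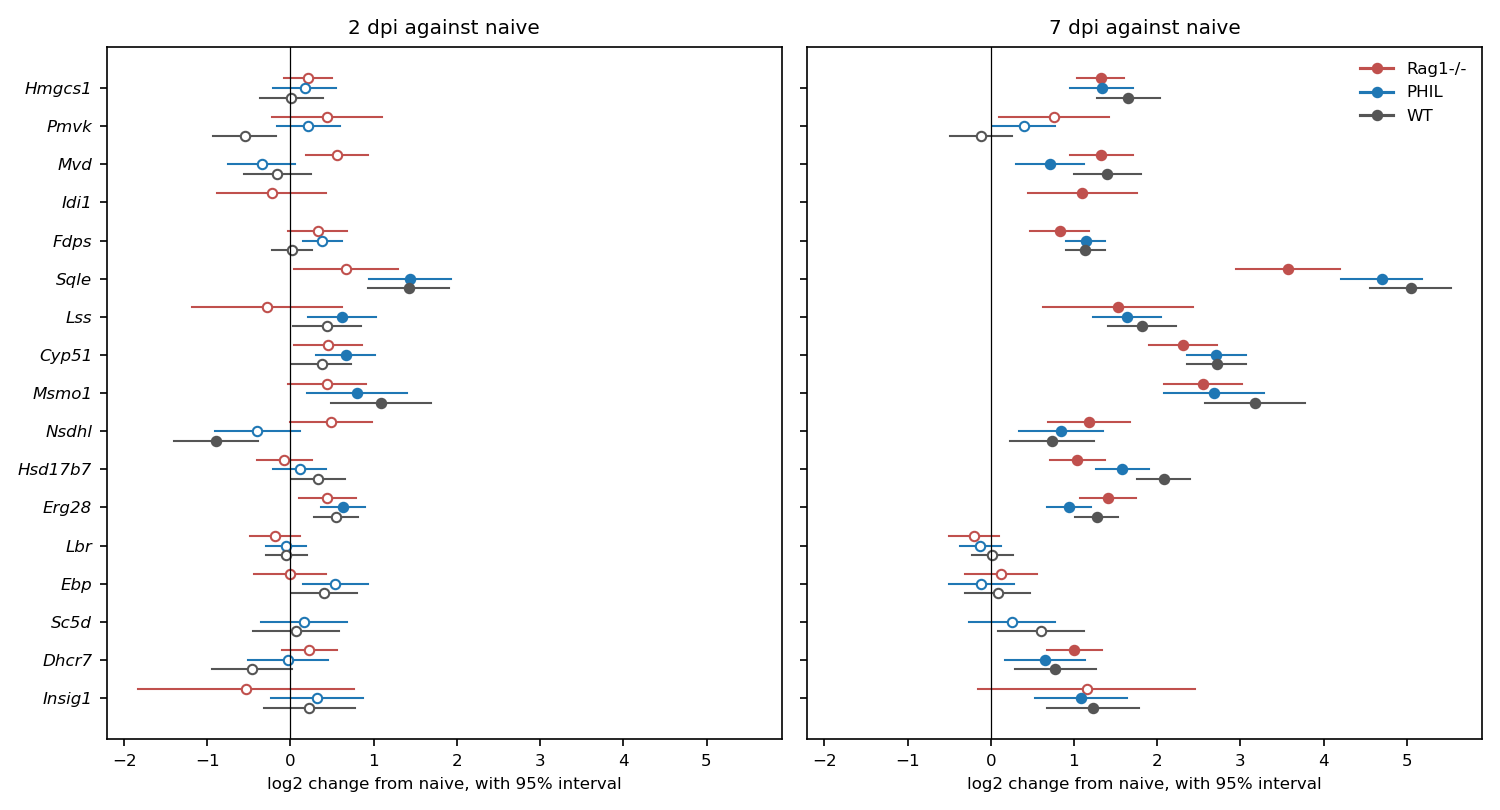
The log2 change at 2 dpi and at 7 dpi against naive (horizontal axis) is plotted for the 8 genes and the other enzymes of the pathway tested, in pathway order down the page, with Rag1-/-, PHIL and WT as separate points. Bars are 95% intervals and hollow points were not called. Sqle lies farthest from 0 at 7 dpi in all 3 strains, at 3.58 in Rag1-/-, 4.70 in PHIL and 5.05 in WT. Its probe in Rag1-/- is not the one used in PHIL and WT. Msmo1 lies at 2.55, 2.68 and 3.17 and Cyp51 at 2.31, 2.71 and 2.72 in the same strains.

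The change came mostly after 2 dpi. At 2 dpi against naive, 0 of 8 genes were called in Rag1-/- by limma (adjusted p 0.093 to 0.634, with 2 genes at an unadjusted p under 0.05), against 6.80% of all genes called higher. In PHIL 3 of 7 were called higher, namely Sqle (at least 2.57-fold, adjusted p = 0.000374), Cyp51 (1.58-fold, adjusted p = 0.00793) and Lss (at least 1.05-fold, adjusted p = 0.025), against 10.6% of all genes. The probes standing for Sqle and Lss were detected on no naive PHIL array and passed the filter only through infected arrays. The PHIL counts at 2 dpi are thus a description, and nothing is read from them. Without naive PHIL replicate 2, Lss (log2 0.29, adjusted p = 0.33) and Cyp51 (0.51, adjusted p = 0.0959) were not called, nor without 2 dpi replicate 2 (0.53 and 0.57), and Lss was not called without 2 dpi replicate 3 (adjusted p = 0.0549). In WT 1 of 7 was called higher, Sqle (2.68-fold, log2 1.42 ± 0.23, adjusted p = 0.000317), against 13.1% of all genes. The 2 dpi arrays lay wholly above the naive arrays for 5 of 8 genes in Rag1-/-, 5 of 7 in PHIL and 3 of 7 in WT, which held for 19.1%, 25.7% and 27.9% of all genes, and Dhcr7 lay wholly below in WT. The early Sqle call depended on the probe in Rag1-/-. By ILMN_2737163 the change there was 0.69 and called (limma adjusted p = 0.0271), in place of 0.66 by ILMN_2600348 (adjusted p = 0.106). In PHIL and WT, ILMN_2600348 was detected on no array at naive or 2 dpi. Its fitted changes, 0.11 in PHIL and 0.69 in WT, compare background values, so it cannot decide the early call in these strains.

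Between 2 and 7 dpi, 7 of 8 genes were called higher in Rag1-/-, against 13.9% of all genes, and Fdps passed the adjusted p but not the fold (log2 0.50, limma adjusted p = 0.0287). The probes standing for Sqle, Lss and Insig1 were each detected on 1 of 3 Rag1-/- arrays at 2 dpi, so that count is a description. In PHIL 7 of 7 were called higher, against 10.7% of all genes, and in WT 7 of 7, against 10.5%. Sqle was 7.54-fold higher at 7 dpi than at 2 dpi in Rag1-/- by ILMN_2600348, and 9.58-fold in PHIL and 12.4-fold in WT by ILMN_2737163. By ILMN_2600348 the mean log2 level went from 6.28 to 9.20 in Rag1-/-, 4.94 to 7.80 in PHIL and 5.28 to 8.13 in WT. That probe was detected on no PHIL or WT array at 2 dpi. The order of the strains in these folds thus depended on the probe. The Insig1 call was lost in Rag1-/- without naive replicate 2 or 7 dpi replicate 1 or 2 (adjusted p 0.0503 to 0.113) and in PHIL without 2 dpi replicate 3 or 7 dpi replicate 1 (0.0836 and 0.0869). Dhcr7 in PHIL was lost without 7 dpi replicate 1 or 2 (0.081 and 0.0568), and Fdps in Rag1-/- was called without 2 dpi replicate 1 (log2 0.59) or 7 dpi replicate 3 (0.61).

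The fitted change of Sqle was larger than the mean of the other genes tested. In each array the mean log2 level of the other genes tested was subtracted from that of Sqle, and the change of this difference is described without a test, because the levels of different probes have no common scale. At 7 dpi against naive, the other genes changed by 1.32 on average in Rag1-/-, 1.43 in PHIL and 1.56 in WT on the log2 scale. Sqle exceeded this change by 2.26 in Rag1-/-, 3.27 in PHIL and 3.49 in WT. The naive level of Sqle was above background on 0 of 2 arrays in Rag1-/-, 0 of 2 in PHIL and 1 of 2 in WT, and the mean of the others includes the naive values of Lss and Insig1 that were not detected, so the sizes rest on values near background. By ILMN_2737163, detected on both naive Rag1-/- arrays, the excess there was 2.25. At 2 dpi the excess was 0.64 in Rag1-/-, 1.08 in PHIL and 1.32 in WT. The SD of the difference was 0.15, 0.14 and 0.02 among the 3 arrays at 7 dpi in Rag1-/-, PHIL and WT, and the largest SD, 0.64, belonged to the Rag1-/- mice at 2 dpi, of which replicate 1 was highest. By ILMN_2600348 the excess at 7 dpi fell to 1.55 in PHIL and 1.99 in WT, so the order of the strains was not the same for both probes.

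**Figure D4:**
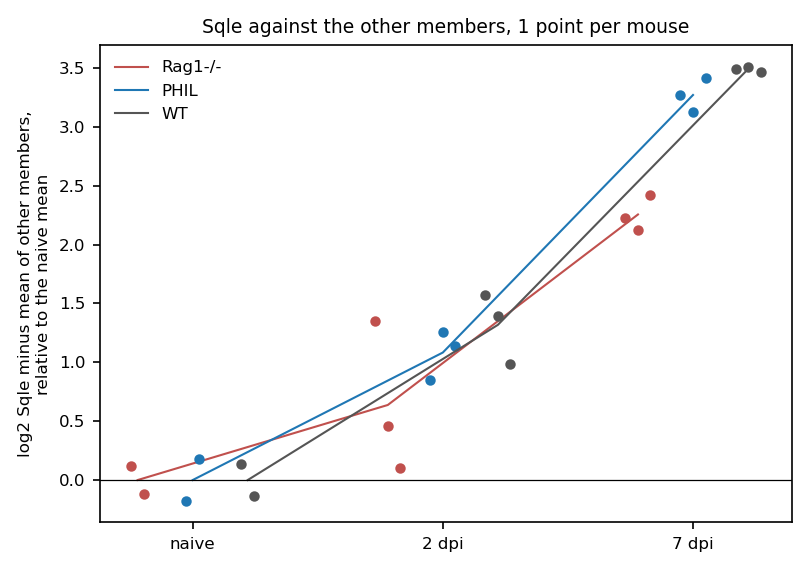
For each array, the log2 level of Sqle minus the mean log2 level of the other genes tested is plotted relative to its naive mean (vertical axis) against stage (horizontal axis), 1 point per mouse, with lines through the means of each strain. At 7 dpi the means reach 2.26 in Rag1-/-, 3.27 in PHIL and 3.49 in WT, and the 3 mice of each strain at 7 dpi lie above all its earlier mice.

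Removing eosinophils was the question of the PHIL arm, and no gene of the 8 was called between PHIL and WT. In naive mice 0 of 7 genes differed by limma, with 0 at an unadjusted p under 0.05, against 0% of all genes. At 2 dpi 0 of 7 differed, again with 0 at an unadjusted p under 0.05 and against 0% of all genes; the 7 changes ran from 0.02 to 0.26 on the log2 scale, all toward PHIL. At 7 dpi 0 of 7 differed, with 1 at an unadjusted p under 0.05 and against 0.535% of all genes; the changes ran from -0.42 to -0.10, all toward WT. The largest of these, Hmgcs1, was -0.42 ± 0.16 (95% interval -0.76 to -0.08, adjusted p = 0.223), and it was called without replicate 1 of PHIL at 7 dpi (log2 -0.63, adjusted p = 0.044). Sqle at 7 dpi differed by -0.35 (95% interval -0.79 to 0.085, adjusted p = 0.455). The response from naive was called different between PHIL and WT for 0 of 7 genes at 2 dpi, with 1 at an unadjusted p under 0.05 and against 0.0122% of all genes, and for 0 of 7 at 7 dpi, with 0 at an unadjusted p under 0.05 and against 0% of all genes. The interval of the Sqle response difference at 7 dpi, -1.04 to 0.34, leaves room for a difference of either sign.

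The responses of Rag1-/- and WT mice were compared in a fit of all 24 arrays normalised together, the strains being separate experiments. Eif2s3y, detected on 8 of 8 Rag1-/- and 4 of 8 WT arrays, was not a covariate in this fit. At 2 dpi 0 of 8 genes differed in response by limma, with 2 at an unadjusted p under 0.05, against 5.46% of all 8987 genes. At 7 dpi 1 of 8 differed, against 1.87% of all genes. This was Sqle, whose rise was smaller in Rag1-/- than in WT, with a log2 difference in response of -1.62 ± 0.32 (95% interval -2.29 to -0.96, adjusted p = 0.0162). In this joint normalisation Sqle rose 11.3-fold in Rag1-/- and 34.7-fold in WT. By ILMN_2600348 it rose 9.41-fold in Rag1-/- and 13.9-fold in WT by fitted means, with no naive array of either strain above background, and the difference in response was -0.56 (adjusted p = 0.354) and not called. The call also ended without replicate 1 of naive Rag1-/- mice (log2 -1.44, adjusted p = 0.0819) or without replicate 2 of naive WT mice (log2 -1.47, adjusted p = 0.054). For the other 7 genes the difference in response ran from -0.51 for Cyp51 (adjusted p = 0.288) to 1.33 for Idi1 (adjusted p = 0.116), a gene with no WT array above background, which was called without replicate 1 of naive WT mice (log2 2.10, adjusted p = 0.0123).

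Some other enzymes of the pathway were called higher as well. Of 16 listed, 10 had a probe. At 7 dpi against naive, 5 of 8 tested in Rag1-/-, 5 of 9 in PHIL and 5 of 9 in WT were called higher, with none lower. Of all genes, 17.6%, 14.9% and 16.3% were called higher. The median log2 changes of the enzymes tested were 1.11, 0.71 and 0.74. Msmo1, the C4-methylsterol oxidase acting after Cyp51, rose 5.86-fold in Rag1-/-, 6.43-fold in PHIL and 9.01-fold in WT. Erg28, which holds the C4-demethylation enzymes together, rose by 1.41, 0.94 and 1.27 on the log2 scale, and Mvd, the decarboxylase that yields isopentenyl pyrophosphate, by 1.33, 0.71 and 1.40, in Rag1-/-, PHIL and WT in that order. The others called, named after their values were seen, were Nsdhl (1.19, 0.84 and 0.74) and Hsd17b7 (1.04, 1.58 and 2.08), both also of C4 demethylation. Pmvk, Lbr, Ebp and Sc5d were not called in the strains where they were tested. At 2 dpi 0 of these enzymes were called in Rag1-/-, 2 in PHIL, Msmo1 and Erg28, and 1 higher in WT, Msmo1, where Nsdhl was lower. Of all genes, 6.80%, 10.6% and 13.1% were called higher at 2 dpi, and nothing is read from these small counts.

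Genes that steer the pathway moved less. Srebf2, which encodes SREBP-2, changed by 0.53 in Rag1-/- on the log2 scale (limma adjusted p = 0.0249, under 1.5-fold), and was called higher in PHIL (0.78) and WT (0.76) at 7 dpi. Srebf1 was not called at 7 dpi against naive in any strain (0.28, 0.33 and 0.10 in Rag1-/-, PHIL and WT). Of the genes of SREBP control tested, 0 of 8 were called in Rag1-/-, 1 of 7 in PHIL and 1 of 7 in WT, with medians of -0.06, -0.02 and -0.02. Of all genes, 17.6%, 14.9% and 16.3% were called higher, and nothing is read from these counts.

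Branches beside the pathway had calls in both directions at 7 dpi. Of all genes tested, 17.6%, 14.9% and 16.3% were called higher and 15.0%, 11.4% and 11.9% lower in Rag1-/-, PHIL and WT. The counts of these small lists are a description, and nothing is read from them. Of sterol uptake and transport genes, 3 of 7 were higher and 1 lower in Rag1-/-. The lower gene was Vldlr, a lipoprotein receptor, with a fitted change of -1.65 on the log2 scale. Its probe was detected on only 1 of 3 Rag1-/- arrays at 7 dpi, so this size is imprecise. Npc2 and Lipa, which handle cholesterol in lysosomes, rose by 1.12 and 1.03. In PHIL 1 was higher and 1 lower, and in WT 3 and 1, the lower gene being Stard3 in both (-0.89 and -0.61). Vldlr, by another probe in PHIL and WT, was not called (-0.48 and -0.56). In a list that joins LXR targets with genes of sterol efflux and ester handling, 1 of 6 was higher in Rag1-/-, Apoe (0.83). There 1 was lower, Nceh1, a cholesterol ester hydrolase (-0.91). No gene of this list was called lower in PHIL or WT, and 1 of 6 was higher in PHIL and 0 of 6 in WT. Ch25h, which makes 25-hydroxycholesterol, was detected on no naive array and rose at least 3.20-fold in Rag1-/-, 1.74-fold in PHIL and 1.34-fold in WT at 7 dpi, and it was called at 2 dpi as well (at least 1.42-, 1.55- and 1.72-fold). Cyp27a1, the sterol 27-hydroxylase, was lower in Rag1-/- (-1.08 on the log2 scale) and PHIL (-0.70), with -0.43 in WT. Of the 4 oxysterol and bile acid enzymes tested, 1, 1 and 2 were higher and 1, 1 and 0 lower in Rag1-/-, PHIL and WT.

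Of 7 genes of the isoprenoid branch tested, 1 was called higher in Rag1-/- at 7 dpi against naive, Fntb of protein farnesylation (0.61). In the same comparison 2 were called lower, Coq2 of ubiquinone synthesis (-0.93) and Dhdds of dolichol synthesis (-1.08). However, Dhdds took the opposite sign under median scaling (0.34, limma adjusted p = 0.537). In PHIL and in WT 0 of 7 were called higher and 2 lower, Coq2 and Fnta in PHIL and Dhdds and Rabggta in WT. Coq2 was not called in WT (-0.08), nor Dhdds in PHIL (-0.36). Of all genes tested, 15.0% were called lower in Rag1-/-, 11.4% in PHIL and 11.9% in WT in these comparisons. The shares called higher were 17.6%, 14.9% and 16.3%. Nothing is read from the isoprenoid counts or from those of fatty acid synthesis below. Fatty acid synthesis genes linked to SREBP had 1 of 11 higher and 1 lower in Rag1-/-, 5 and 1 in PHIL and 3 and 0 in WT. Of these Scd2, a stearoyl-CoA desaturase, rose by 2.12 on the log2 scale in Rag1-/- and at least 2.29-fold in PHIL and 2.81-fold in WT, while Gpam, which starts triglyceride synthesis, was lower in Rag1-/- (-1.46).

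The genes with a pattern most like that of Sqle were found by Pearson's r over the 24 jointly normalised arrays, among 8987 genes. These arrays share 9 groups and the same separation by time, so r is a description. Cyp51 ranked first of all (0.989). Outside the 8 genes the closest were Pfkp (0.984), Msmo1 (0.972), Insl6 (0.969), Tuft1 (0.969), Tmem97 (0.967), Hsd17b7 (0.964), Scamp4 (0.962) and Pak4 (0.961). Msmo1 and Hsd17b7 are cholesterol enzymes, and Pfkp is a phosphofructokinase of glycolysis. Of the 8 genes, Fdps (0.961) and Hmgcs1 (0.953) followed Sqle closely, and Lss (0.875), Dhcr7 (0.798), Insig1 (0.738) and Idi1 (0.19) less so. The joint r also takes in differences of level between the 2 experiments. Idi1 was detected on no PHIL or WT array, and within Rag1-/- its r was 0.819. Within Rag1-/-, PHIL and WT, r was 0.827, 0.949 and 0.978 for Lss. It was 0.957, 0.745 and 0.801 for Dhcr7, and 0.674, 0.881 and 0.948 for Insig1. At 7 dpi against naive Pfkp changed by 1.83 in Rag1-/-, 2.48 in PHIL and 2.31 in WT, all called. Insl6, of the insulin and relaxin family, rose by 4.15 in Rag1-/-, and at least 8.30-fold in PHIL and 8.63-fold in WT, where it was detected on no naive array.

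Markers of other cells moved in the same diaphragms. Of 10 macrophage and monocyte markers with a probe, 9 were tested. At 7 dpi 7 of the macrophage and monocyte markers were called higher in Rag1-/-, 7 in PHIL and 9 in WT, against 17.6%, 14.9% and 16.3% of all genes. Their summed level was 32758 to 46410 at 7 dpi in Rag1-/-, against 8336 to 10384 in naive mice, 10707 to 13478 against 3076 to 3456 in PHIL, and 8915 to 11139 against 2322 to 2609 in WT. Itgam was undetected at 7 dpi in all strains, and Adgre1, Itgam and Fcgr1 in naive PHIL and WT mice. Most of this rise was present at 2 dpi, when the list's median change was 1.25 in Rag1-/-, 1.29 in PHIL and 1.48 in WT, against 1.77, 1.33 and 1.61 at 7 dpi. Markers of regenerating muscle had medians of 2.64, 1.65 and 2.02 at 2 dpi and 1.52, 1.77 and 2.09 at 7 dpi, and cell cycle genes 2.08, 0.69 and 1.13 at 2 dpi and 2.96, 1.20 and 1.62 at 7 dpi, in Rag1-/-, PHIL and WT in that order. At 7 dpi 4 of 8, 5 of 7 and 6 of 7 regenerating muscle genes tested were called higher, and 6 of 7, 5 of 6 and 5 of 6 cell cycle genes. The shares of all genes called higher were 17.6%, 14.9% and 16.3%. Regenerating muscle markers summed to 34321 to 37906 at 7 dpi in Rag1-/-, against 3076 to 5214 in naive mice, 14314 to 14930 against 1925 to 2094 in PHIL, and 14432 to 16265 against 1726 to 1740 in WT, with Mymk and Myf5 undetected at 7 dpi. Cell cycle genes summed to 6126 to 6386 against 930 to 1374 in Rag1-/-, 2317 to 2468 against 895 to 1564 in PHIL, and 1831 to 2217 against 641 to 979 in WT, with Ccnb2 undetected at 7 dpi in all strains and Pcna in PHIL and WT.

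Lymphocyte markers split the strains. In Rag1-/- 1 of 9 was above the detection filter, Cd2, and it was called higher at 7 dpi. In PHIL and in WT 4 of 5 tested were called higher, and the sum of all 9 was 1068 to 1451 at 7 dpi against 289 to 414 in naive PHIL mice, and 535 to 845 against 287 to 301 in WT. Cd4, Cd8a, Cd79a and Ms4a1 were undetected throughout. At 7 dpi fibroblast markers were called higher for 5 of 9 in Rag1-/- with 2 lower, for 3 of 9 in PHIL and for 5 of 9 in WT. Beside these and the lymphocyte counts, 17.6% of all genes were called higher in Rag1-/-, 14.9% in PHIL and 16.3% in WT. Endothelial markers were lower for 7 of 9, 4 of 9 and 5 of 9, and mature muscle markers for 3 of 9, 2 of 9 and 2 of 9, in Rag1-/-, PHIL and WT, against 15.0%, 11.4% and 11.9% of all genes. Adipocyte markers were lower for 1 of 8 in Rag1-/-, 0 of 5 in PHIL and 1 of 5 in WT, and of the 2 Schwann cell genes tested 1 was higher in Rag1-/-, 1 lower in PHIL and 1 higher in WT. The part of these cells in the rise of the cholesterol genes was not tested.

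**Figure D5:**
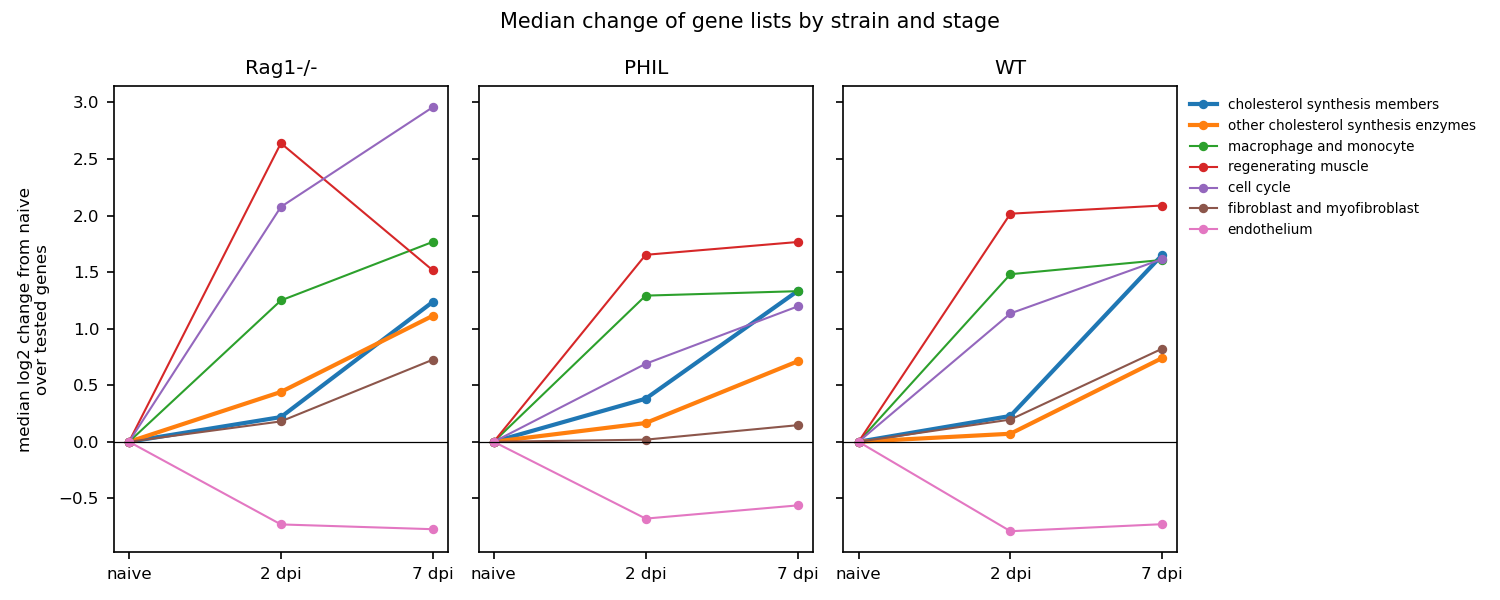
The median log2 change of each gene list at 2 dpi and at 7 dpi against naive is plotted on the vertical axis against stage on the horizontal axis, with 1 panel per strain and 1 line per list, naive being 0. The 8 cholesterol genes (thick blue) reach 0.22 in Rag1-/-, 0.38 in PHIL and 0.23 in WT at 2 dpi, and 1.24, 1.33 and 1.65 at 7 dpi, whereas macrophage and regenerating muscle markers are already above 1 at 2 dpi in all 3 panels.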

How the data were processed

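Biotin-labelled cRNA of 24 diaphragms, 1 mouse per array, was hybridised to Illumina MouseRef-8 bead arrays. The authors deposited the intensity of every probe as GenomeStudio 1.8 wrote it, before any normalisation, beside its detection p-value, and a table of linear normalised intensity, used here as an alternative only. Intensities were corrected with normexp from the detection p-values (offset 16), quantile-normalised and tested on the log2 scale in limma 3.58.1 (R 4.3.3), separately for the 8 Rag1-/- and the 16 PHIL and WT arrays, and for all 24 arrays only for Rag1-/- against WT responses. Residual degrees of freedom were 5, 10 and 15. Tests are two-sided, and the number of arrays limits their precision. Probes detected on at least 2 arrays of a set were kept. The kept probe with the widest interquartile range stood for its gene, and 23978 probes had 1 gene name, 1719 had none and 0 had several. Benjamini-Hochberg adjustment ran over all genes tested, and over the 3 Rag1-/- comparisons together. A bound sets the higher group against the greater of an undetected probe's own value and the lowest detected value of each array.

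The 8 genes and all lists were chosen with earlier results of these data known. From each list the text names up to 3 genes with the largest change among those called in Rag1-/- at 7 dpi, with Srebf2 and Srebf1 whatever their values, and the 8 genes outside the list with the highest Pearson correlation with Sqle. Alternatives covered background correction, scaling, filter, choice of probe, thresholds, replicate numbers as a block and leaving out each array. Endothelium, adipocyte, Schwann cell, fibroblast, lymphocyte and mature muscle markers were tested as well. Some listed genes are not reported here. The code was tested on simulated data.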

Additional observations from a re-analysis of the deposited data

Results flagged for a closer look

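Beside the calls described above, a test of the difference in response between Rag1-/- and WT mice passed for 6 of the genes named. The response of Sqle at 7 dpi differed by -1.62 on the log2 scale, with the smaller rise in Rag1-/-, a call that rested on 1 of its 2 probes and on single naive arrays. Hsd17b7, a sterol reductase of C4 demethylation, rose less at 7 dpi in Rag1-/- (-1.10), and the response of Nceh1, a cholesterol ester hydrolase, also differed (-0.65). Tuft1, one of the genes most like Sqle, changed by -0.14 in Rag1-/- and 0.97 in WT at 2 dpi, and its response differed by -1.11 at 2 dpi and by -1.09 at 7 dpi. Coq2, which attaches the ubiquinone tail, changed by -0.50 in Rag1-/- and 0.67 in WT at 2 dpi, a difference of -1.17 in the joint fit. Nsdhl, also of C4 demethylation, went the other way at 2 dpi (1.38). The strains were separate experiments, so strain and experiment cannot be told apart in any of these differences. Detection of the Y-linked gene Eif2s3y also differed, on 8 of 8 Rag1-/- and 4 of 8 WT arrays, and these responses were not adjusted for it.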

How the results depend on the processing

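In the counts below, the values are numbers of the 8 genes called. The share of all genes called under each setting is not given, so nothing is read from a change in these counts. In Rag1-/- at 2 dpi against naive, 1 gene was called with a background offset of 50, with all 24 arrays normalised together, with the probe of highest mean, with the mean over kept probes, and with Sqle by ILMN_2737163. At 7 against 2 dpi in Rag1-/-, 4 were called with no background correction and 4 with the authors' normalised values, and the same settings gave 4 in PHIL, as did a 2-fold minimum with adjusted or unadjusted p. In PHIL at 2 dpi against naive, 1 was called under each of these 4 settings and with an offset of 50. In WT at 2 dpi against naive, median scaling gave 3, and it moved the share of higher genes among all calls from 55.9% to 92.7%. For Rag1-/- against WT responses, median scaling gave 1 at 2 dpi and 2 at 7 dpi, unadjusted p with a 2-fold minimum gave 2 at 7 dpi, and the mean over kept probes or Sqle by ILMN_2600348 gave 0.

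The excess of Sqle over the other genes at 7 dpi was 2.05 in Rag1-/-, 2.49 in PHIL and 2.71 in WT with no background correction, and 2.06, 2.58 and 2.80 with the authors' normalised values. In PHIL and WT it was 2.94 and 3.16 with an offset of 50, 3.51 and 3.76 without the detection filter, 2.44 and 2.79 with the mean over kept probes, and 1.55 and 1.99 with Sqle by ILMN_2600348. Dhdds in Rag1-/- changed sign under median scaling, to 0.34 against naive and 0.022 against 2 dpi at 7 dpi. Median scaling moved the share of higher genes among all calls at 7 dpi against naive to 97.5% in PHIL and 97.0% in WT, against 56.7% and 57.8% with quantile normalisation. The causes were not tested. Fits by single Sqle probes and with Eif2s3y were chosen after seeing the data.

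Leaving out 1 array at a time gave 0 to 0 (2 dpi against naive), 5 to 8 (7 dpi against naive) and 6 to 8 genes (7 against 2 dpi) in Rag1-/-, 1 to 3, 6 to 7 and 5 to 7 in PHIL, and 1 to 1, 6 to 7 and 7 to 7 in WT. It gave 0 to 1 between PHIL and WT at 7 dpi, 0 to 2 for the Rag1-/- against WT response at 7 dpi, and 0 to 0 for the remaining 5 comparisons between strains. In PHIL at 2 dpi, 1 gene was left without naive replicate 2 or 2 dpi replicate 2. The excess of Sqle ran from 2.14 to 2.34 in Rag1-/-, 3.09 to 3.45 in PHIL and 3.34 to 3.62 in WT. In each of these fits the probe standing for a gene was picked anew, so a count can also change with the probe. The deviations of same-numbered mice had a correlation over 0.1 in 3 of 7 pairs in Rag1-/- and 4 of 36 in PHIL and WT. The mean correlation was -0.022 in Rag1-/- and 0.001 in PHIL and WT. With groups this small, these values cannot decide whether same-numbered mice shared a batch, and they were not treated as pairs. With the replicate block 6 genes were called in Rag1-/- at 7 dpi against naive (Lss was lost, limma adjusted p = 0.0537) and 6 at 7 against 2 dpi (Insig1 was lost, adjusted p = 0.0743), and no other count changed. Over all settings no change of the 8 genes that was called reversed. Naive values of Sqle, Lss, Idi1 and the Insig1 probe ILMN_2606693 lay near background, so their changes are imprecise or bounds.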
